A study of Danio rerio with 6 samples.

Results

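Amino acid transporters of zebrafish neuroblastomas were described across 2 tumour genotypes. The members were the symbols of the deposited gene count table in the solute carrier families slc1, slc3, slc6, slc7, slc36, slc38 and slc43. This rule reads the symbol alone, but it was chosen with earlier results of these data known. The members numbered 54 of the 14781 symbols of the table, with 12 in slc1, 2 in slc3, 17 in slc6, 8 in slc7, 9 in slc38 and 6 in slc43. No symbol of the table belonged to slc36. The rule leaves out slc6a2, the noradrenaline transporter gene, but the table held no such symbol. The families matched 54 symbols before that step, so none was removed and slc6a2 was not measured. One member, slc7a6os, is named for its place beside slc7a6 and does not encode a transporter. RNA came from tumours of the peripheral sympathetic nervous system. Fish of both groups overexpressed MYCN. The MYCN-only group (3 libraries) is labelled with that overexpression alone, and the knockout group (3 libraries) also carried a knockout of gas7. The promoter of the MYCN transgene, the mutated copy of gas7, the age of the fish and the number of fish per library were not stated in the labels, and p-values therefore measure the spread between these libraries.

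Cells take up amino acids through carriers that differ in substrate and in driving force. Members of slc1 and slc6 use the sodium gradient, and carry glutamate or small neutral amino acids (slc1) and GABA, glycine, taurine, monoamines or neutral amino acids (slc6). The light chains of slc7 exchange one amino acid for another and reach the plasma membrane only when bound to a heavy chain of slc3. Members of slc38 bring in glutamine and alanine, or work in the lysosome, and slc43a1 and slc43a2 let large neutral amino acids such as leucine through without exchange. In mammals slc1a5, slc7a5 and slc3a2 are known as carriers that MYC-driven tumours use to supply glutamine and leucine.

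The libraries held 12054844 to 33305326 counts, and every knockout library was deeper than every MYCN-only library. Transporter reads made up 0.309%, 0.194% and 0.196% of the counts of knockout libraries 1, 2 and 3 and 0.240%, 0.261% and 0.251% of those of MYCN-only libraries 1, 2 and 3, so the groups overlapped. Levels are given as CPM, the counts of a gene scaled to a common library size after TMM. They are not divided by gene length, so levels are compared between libraries and not between genes. The symbol gas7a stood at 14.8, 13.9 and 10.03 CPM (knockout) against 23.01, 9.69 and 32.7 CPM (MYCN-only), a level that does not check the genotype labels, since a mutated gene can still be transcribed. All 14 markers of the noradrenergic lineage were read in all 6 libraries, at a summed 5691 to 13351 CPM in knockout and 7146 to 8782 CPM in MYCN-only, most of it from th and dbh. Of the 14, 7 were lower in knockout and 7 higher. On the lower side tfap2a, phox2a and gata2a did not overlap between groups, where 12.3% of all genes were lower without overlap. Their log2 fold changes were -1.12, -1.13 and -0.73 (edgeR adjusted p of 0.183 to 0.288). DESeq2 called tfap2a and phox2a, where it called 4.02% of all genes as lower. On the higher side chga, insm1a and slc18a2 had log2 fold changes of 2.27, 1.77 and 1.21 (SE 1.21, 1.17 and 0.64), and their libraries overlapped. chga was at 292 CPM in knockout library 1 but at 13.1 and 16.25 CPM in knockout libraries 2 and 3, below all MYCN-only libraries. insm1a was at 119 CPM in knockout library 3, and its other knockout libraries lay within the MYCN-only range. slc18a2 stood at 1215, 185 and 529 CPM in knockout and at 345, 221 and 272 CPM in MYCN-only. Knockout libraries 2 and 3 stood apart in the summed level of the egg and ovary markers, called ovary markers below. The 14 measured markers, of which ddx4, bmp15 and figla were at 0 in at least 1 knockout library, summed to 2707 and 3196 CPM there, to 18.8 CPM in knockout library 1 and to 9.33 to 20.1 CPM in the MYCN-only libraries. Not every marker followed that sum. In knockout libraries 1, 2 and 3 lhcgr stood at 0.675, 0.374 and 1.04 CPM and sycp3 at 0.312, 1.08 and 0.879 CPM. There foxl2 stood at 2.13, 0.374 and 0.326 CPM. Their MYCN-only means were 0.652, 0.785 and 0.527 CPM. Whether a change of a bulk level stems from fewer cells of a type or from less RNA per cell cannot be told apart.

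Of the 54 members, 46 passed the filter on low counts and were tested. edgeR's quasi-likelihood test called 0 of these at an adjusted p under 0.05, as it called 0% of all 12821 tested genes. At an unadjusted p under 0.05, 4 members were higher in knockout, where 11.5% of all tested genes were, and 5 were lower, where 7.57% of all genes were. The libraries of the groups did not overlap for 4 members with higher and 5 with lower knockout levels, against 11.6% and 12.3% of all genes. These shares lie near the background. By direction alone 21 members were higher and 25 lower, and the median log2 fold change was -0.07, while 52.4% of all genes were higher and their median was 0.04. DESeq2 called 2 members as higher and 5 as lower (6.29% and 4.02% of all genes), and limma-voom called none of the members, where 0.0078% of all genes were called as higher and 0% as lower. At its unadjusted p under 0.05 it had 2 members higher and 4 lower, the share of all genes at that threshold not being taken. Without knockout library 1 edgeR called 4 as higher and 3 as lower (11.2% and 3.51% of all genes). The same 5 genes were among the calls of DESeq2 and of edgeR without knockout library 1: slc1a1, slc6a19a.1 and slc38a5b as lower, slc7a6 and slc38a11 as higher. The fit without knockout library 1 kept only knockout libraries 2 and 3, those with the ovary markers. The part of egg or ovary RNA in its calls was not tested.

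**Figure D1:**
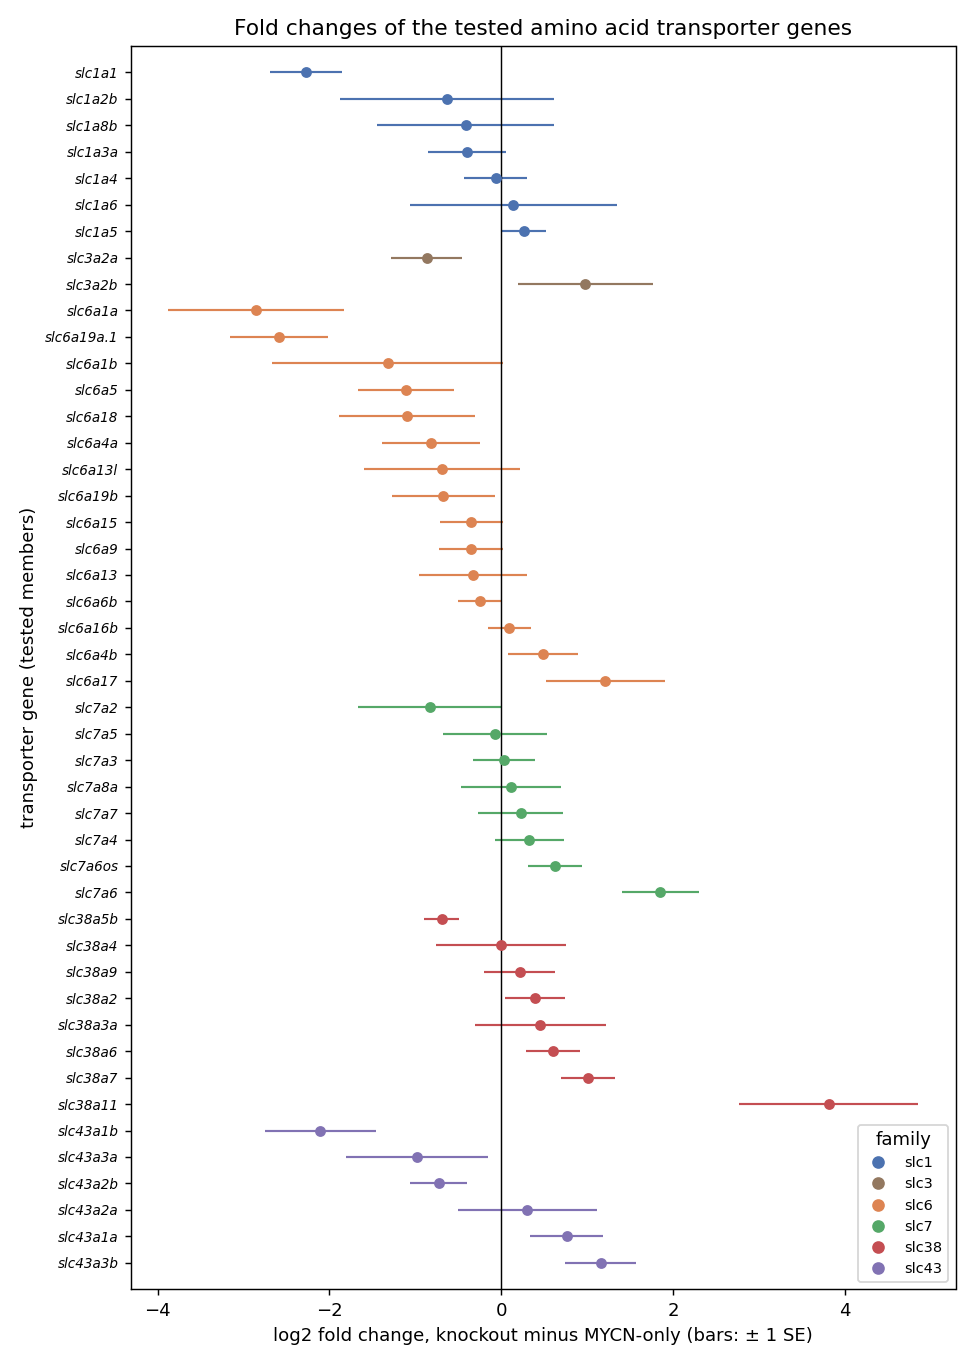
Log2 fold change between knockout and MYCN-only tumours (x axis, bars ± 1 SE from edgeR, 3 libraries a group) for the 46 tested members, coloured by family. Most slc6 genes lie left of 0 and most slc38 genes right of it, the extremes being slc6a1a at -2.85 and slc38a11 at 3.81.

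The families were then compared. In slc6, 12 of 15 tested members were lower (median log2 fold change -0.67), and in slc1, 5 of 7 were lower (median -0.40). In slc38, 6 of 8 were higher (median 0.42). In slc7, 6 of 8 were higher (median 0.17), or 5 of 7 without slc7a6os, and slc43 had 3 in each direction (median -0.21, but 0.04 without knockout library 2 and 0.10 without MYCN-only library 1). No test was made between families, since genes are not replicates. The slc6 and slc38 medians kept their sign under every other setting that was run. Without MYCN-only library 2 the slc1 median turned to 0.14, with 6 of 8 tested members higher, and the slc6 median moved to -0.05. The slc7 median turned to -0.33 without knockout library 1, with 2 of 8 higher. slc7 had 4 in each direction with upper-quartile factors, in limma-voom and with the replicate number as a block. Set against the mean log2 CPM of the MYCN-only libraries, the median slc7 gene stood at 0.94 in knockout library 1, at -0.39 in knockout library 2 and at -0.06 in knockout library 3. The corresponding slc6 medians were -0.53, -0.35 and -0.66, those of slc38 were 0.62, 0.18 and 0.70, and those of slc1 were 0.15, 0.11 and -0.21. Those of slc43 were -0.29, -0.41 and -0.56, although its median fold change did not keep its sign, as given above. The knockout libraries thus lay on the same side of MYCN-only for slc6, slc38 and slc43, and on different sides for slc7 and slc1.

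The gene with the smallest p of all members was slc1a1, which in mammals encodes a carrier of glutamate, aspartate and cysteine in neurons and in epithelium of kidney and intestine. Its levels in libraries 1, 2 and 3 were 2.28, 1.83 and 2.74 CPM for knockout and 15.3, 8.0 and 9.75 CPM for MYCN-only. No knockout library reached the MYCN-only range. The log2 fold change was -2.27 (SE 0.42, edgeR adjusted p = 0.174). It was -2.26 with knockout libraries 2 and 3 left out and -2.27 without knockout library 1, where the gene was called (edgeR adjusted p = 0.0322). DESeq2 called it as well (adjusted p = 1.09e-05), and adjusted p ran from 1.09e-05 to 0.416 over 15 other settings. Group means were 2.28 ± 0.453 CPM for knockout and 11.02 ± 3.82 CPM for MYCN-only (SD, n = 3).

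The remaining glutamate carriers were low or overlapped, and are named for completeness, outside the rule for named genes. The glial type carrier slc1a3a stood at 33.7, 22.3 and 20.9 CPM in knockout and at 19.8, 56.9 and 24.7 CPM in MYCN-only, with the highest and the lowest level both in MYCN-only (log2 fold change -0.40, SE 0.46). slc1a2b, slc1a6 and slc1a8b stayed at or under 2.84 CPM in every library, with log2 fold changes of -0.63, 0.14 and -0.41 and SEs of 1.03 to 1.25. Of these, slc1a2b was at 0 reads in knockout library 1, where 3 reads would have been 0.156 CPM, so a lower level there was not detectable. slc1a2a, slc1a3b, slc1a7a, slc1a7b and slc1a9 did not pass the filter. slc1a9 had 0 reads in all 6 libraries, which allows up to 0.0977 to 0.267 CPM by library, for counting error only. The neutral exchangers of the family, which swap alanine, serine and glutamine, overlapped between groups. slc1a5 stood at 119, 86.1 and 84.7 CPM in knockout and at 82.7, 95.6 and 63.5 CPM in MYCN-only (log2 fold change 0.26, SE 0.26), and slc1a4 had a log2 fold change of -0.06 (SE 0.36).

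**Figure D2:**
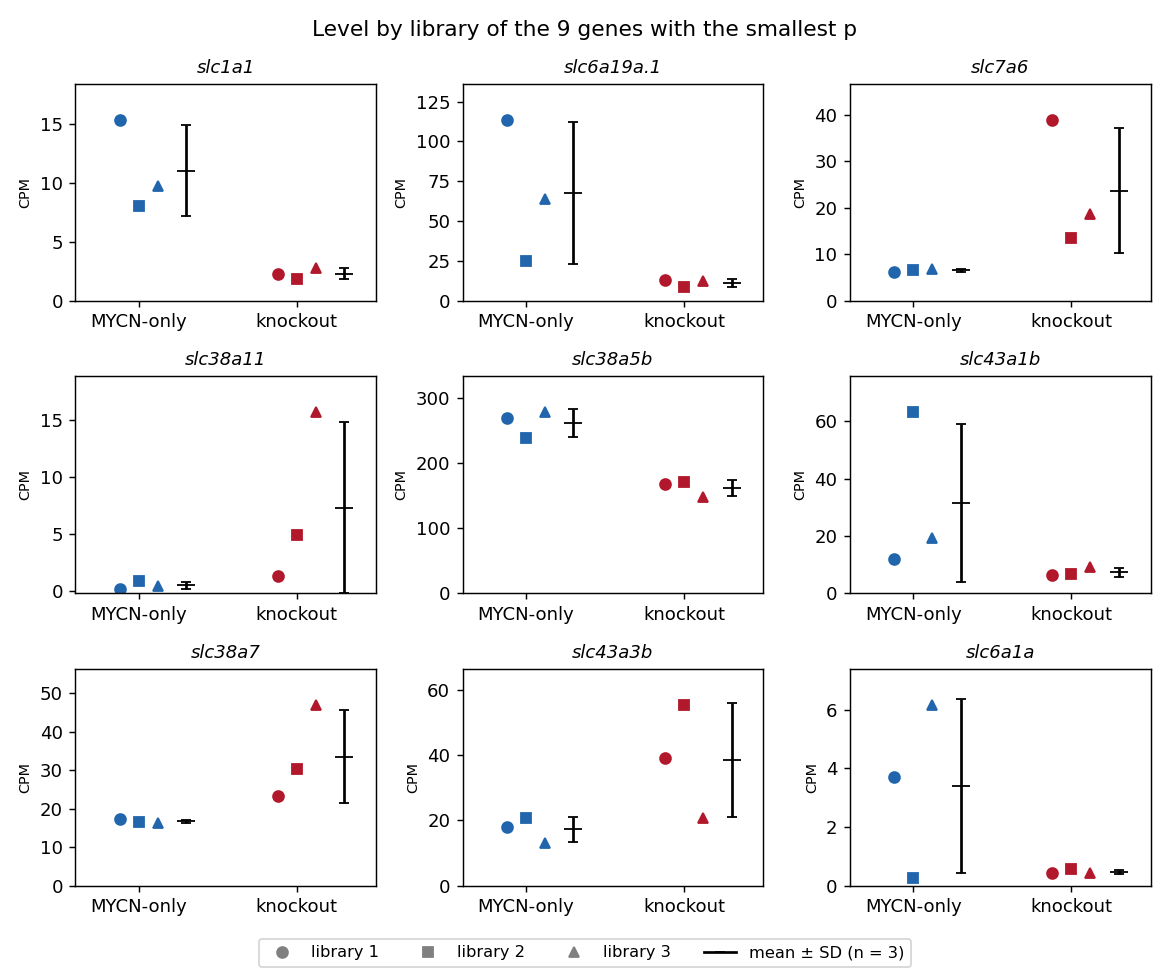
CPM by library (y axis, linear) for the 9 members with the smallest p; blue points are MYCN-only and red points knockout libraries, and black marks give the mean ± SD (n = 3). The 3 knockout libraries of slc1a1 lie between 1.83 and 2.74 CPM, and for slc38a11, slc38a7 and slc7a6 the knockout libraries spread more than the MYCN-only ones.

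Carriers of absorptive epithelium in slc6 were lower or overlapped. slc6a19a.1 encodes a zebrafish copy of the sodium-driven carrier that in mammals takes up neutral amino acids in intestine and kidney tubule. It was read at 13.3, 8.29 and 12.2 CPM in knockout and at 114, 24.9 and 64.0 CPM in MYCN-only libraries 1, 2 and 3. All knockout libraries were below all MYCN-only libraries, which differed among themselves more than the knockout libraries did. The log2 fold change was -2.58 (SE 0.57, edgeR adjusted p = 0.174). It was called in DESeq2 (adjusted p = 0.000556) and in edgeR without knockout library 1 (0.0496), within a range of 0.000556 to 0.416 over 15 settings. A tandem copy, slc6a19a.2, lies beside it in the RefSeq gene order but was not among the symbols of the count table. How reads of that copy were counted is therefore not known. The second copy, slc6a19b, was read at 31.8, 13.6 and 76.5 CPM in knockout and 75.5, 48.8 and 70.4 CPM in MYCN-only. Knockout library 3 had the highest level of all 6 (log2 fold change -0.67, SE 0.60, edgeR adjusted p = 0.567). slc6a18, a related kidney carrier in mammals and the other neighbour of slc6a19a.1, had a log2 fold change of -1.09 (SE 0.79), with knockout library 1 lowest at 1.35 CPM.

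Markers of several other tissues, kidney tubule and intestine among them, were lower in knockout as slc1a1 and slc6a19a.1 were. Of 11 kidney markers, all of them tested, 10 were lower in knockout, and their summed level was 389.8 to 1479 CPM in knockout and 1911 to 2779 CPM in MYCN-only. Of 9 tested intestine markers, 8 were lower, with sums over all 11 measured of 107 to 1237 CPM and 1917 to 2041 CPM. The intestine markers cdx1b and fabp6 were at 0 in at least 1 knockout library, no kidney marker was, and cdh17 is on both lists. In knockout library 1 the kidney and intestine sums, 1479 and 1237 CPM, were the highest of the knockout group. Of that intestine sum apoa1a gave 631 CPM, pck1 353 CPM and cdh17 174 CPM. The other intestine markers stood at 45.8 CPM or lower in that library, with vil1 at 8.88 CPM and fabp2 at 3.63 CPM. In the same library slc1a1 was at 2.28 CPM and slc6a19a.1 at 13.3 CPM. The near-equal MYCN-only intestine sums hide different orders of the genes. In MYCN-only libraries 1, 2 and 3 vil1 stood at 114, 35.4 and 94.9 CPM and fabp2 at 117, 11.2 and 179 CPM. Within that group slc15a1b, anpepb and apoa1a, among others, were also lowest in library 2, as were slc1a1 and slc6a19a.1. The markers apoa4b.1, pck1 and fabp6 and the kidney sum were highest in MYCN-only library 2, and cdh17 lay between. One of the 11 kidney markers, already in their count and sum, is the scaffold gene pdzk1, whose product holds transporters at the brush border. It stood at 33.5 ± 22.5 against 163 ± 31.0 CPM (SD, n = 3, log2 fold change -2.28). On the lower side were also 12 of 12 tested pancreas markers, 9 of 10 of skin epidermis, 7 of 8 of glia and 6 of 6 of blood. Other marker lists did not share that side. Of 8 tested macrophage markers 6 were higher (median log2 fold change 0.57), all of them overlapping between groups. Of 12 liver markers 8 were lower and 4 higher, and of 10 tested ovary markers 9 were higher. The part of these cell types in the carriers' levels was not tested.

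The carriers of GABA, glycine and taurine in slc6 were all on the lower side, with 7 of 7 tested members between -2.85 and -0.25 on the log2 scale. Glia markers were lower as well, 7 of 8 tested, with sums over 10 measured of 22.9 to 29.0 CPM in knockout. In MYCN-only libraries 1, 2 and 3 the glia sums were 52.6, 110.04 and 41.3 CPM. Of these markers erbb3b was at 0 in 1 knockout library, and sox10 stood at 1.33 ± 0.556 against 7.60 ± 3.41 CPM (SD, n = 3). The part of glia in the levels of the carriers was not tested. Only slc6a1a among them had an unadjusted p under 0.05 in edgeR. This GABA transporter gene stood at 0.415, 0.560 and 0.423 CPM in knockout and at 3.73, 0.267 and 6.17 CPM in MYCN-only, where library 2 was the lowest of all 6, so the groups overlapped. Its log2 fold change was -2.85 (SE 1.02, edgeR adjusted p = 0.220). DESeq2 called it (adjusted p = 0.0472, in a range of 0.0472 to 0.476 over 14 settings). Its span overlaps vgll4a in the RefSeq annotation. The neuronal glycine transporter gene slc6a5 stood at 4.41, 2.47 and 2.77 CPM against 2.94, 8.27 and 9.64 CPM (log2 fold change -1.11, SE 0.56), with MYCN-only library 1 inside the knockout range. The other glycine transporter gene, slc6a9, had -0.35 (SE 0.37). Outside the rule, the taurine transporter gene slc6a6b had -0.25 (SE 0.26), and slc6a1b, slc6a13 and slc6a13l had -1.32, -0.33 and -0.69 with SEs of 0.63 to 1.34. slc6a11a did not pass the filter, with 1, 13 and 37 reads in knockout and 3, 0 and 8 in MYCN-only. Without MYCN-only library 2, slc6a13 and slc6a13l were on the higher side, at 0.48 and 0.62, and with knockout libraries 2 and 3 left out slc6a13l was at 0.28.

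Of the monoamine carriers other than slc6a2, neither of the tested copies was called, and the libraries of slc6a4b did not overlap. The serotonin transporter copy slc6a4a stood at 24.1, 16.7 and 11.2 CPM in knockout and at 18.2, 56.8 and 16.7 CPM in MYCN-only (log2 fold change -0.82, SE 0.57, but 0.02 without MYCN-only library 2). The second copy, slc6a4b, was at 4.21, 4.48 and 7.78 CPM against 3.79, 4.09 and 3.87 CPM. Every knockout library of slc6a4b was above every MYCN-only library, with 0.49 on the log2 scale (SE 0.41; adjusted p = 0.540 in edgeR). The dopamine transporter gene slc6a3, outside the rule, did not pass the filter, with 0, 21 and 34 reads in knockout and 0, 2 and 0 in MYCN-only libraries 1, 2 and 3. Among the neuronal neutral carriers, slc6a17, which in mammals loads synaptic vesicles with neutral amino acids, stood at 88.0 CPM in knockout library 1. The other knockout libraries had 20.9 and 19.8 CPM, and MYCN-only libraries stood at 11, 16.5 and 28.0 CPM (log2 fold change 1.21, SE 0.69, and 0.13 without knockout library 1). Outside the rule, slc6a15 had -0.35 (SE 0.37) and the orphan carrier gene slc6a16b 0.09 (SE 0.25).

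The heavy chain copies went in different directions and turned on knockout library 1. slc3a2b was read at 443 CPM in knockout library 1, at 73.1 and 56.5 CPM in the other knockout libraries and at 84.6, 101 and 105 CPM in MYCN-only. Knockout library 1 thus stood above all others, and knockout libraries 2 and 3 below all MYCN-only libraries. The log2 fold change was 0.98 (SE 0.79, edgeR adjusted p = 0.523), and -0.58 without knockout library 1. slc3a2a stood at 60.6, 41.9 and 21.7 CPM in knockout and at 99.0, 64.9 and 62.7 CPM in MYCN-only, with no overlap (log2 fold change -0.87, SE 0.41, edgeR adjusted p = 0.307).

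Of the light chains that pair with these heavy chains, slc7a6, slc7a7 and slc7a8a were highest in knockout library 1 as well. slc7a5, the large neutral exchanger, was at 111, 54.3 and 26.9 CPM in knockout and at 46.2, 43.2 and 113 CPM in MYCN-only. One library of each group was high, and the groups overlapped (log2 fold change -0.07, SE 0.61, edgeR adjusted p = 0.962). Its log2 fold change was -0.73 without knockout library 1 and 0.73 with knockout libraries 2 and 3 left out. slc7a8a, a second exchanger of neutral amino acids, stood at 156, 38.4 and 43.6 CPM against 97.3, 66.8 and 56.3 CPM, with 0.11 (SE 0.58), and -0.84 without knockout library 1. slc7a7, which exports cationic for neutral amino acids, had 0.23 (SE 0.50, and -0.30 without knockout library 1). Its relative slc7a6 was read at 38.9, 13.4 and 18.6 CPM in knockout and at 6.19, 6.67 and 6.81 CPM in MYCN-only. All knockout libraries lay above the narrow MYCN-only range (log2 fold change 1.85, SE 0.45, edgeR adjusted p = 0.177). The change was called in DESeq2 (adjusted p = 0.00517) and without knockout library 1 (edgeR adjusted p = 0.0411, log2 fold change 1.29), in a range of 0.00517 to 0.416 over 15 settings. Its neighbour in the RefSeq gene order, slc7a6os, whose relative acts in the nuclear import of RNA polymerase II in yeast, was at 41.8, 74.4 and 77.0 CPM against 43.1, 32.1 and 49.9 CPM (log2 fold change 0.63, SE 0.32). In slc7a6 knockout library 1 was the highest of all libraries, and in slc7a6os it lay within the MYCN-only range.

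**Figure D3:**
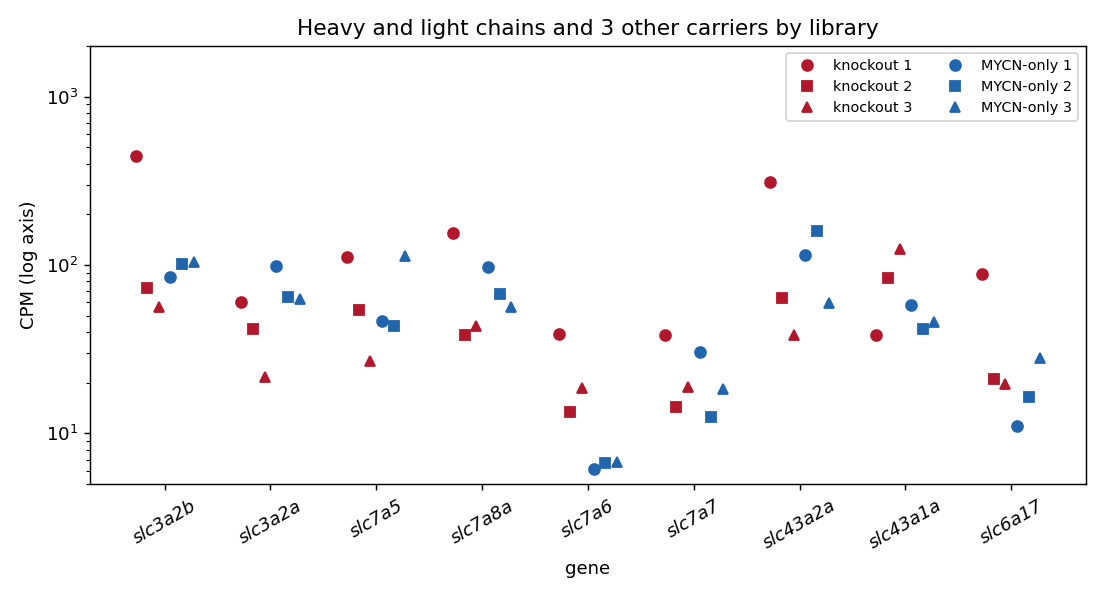
CPM by library (log axis) for the heavy chain genes slc3a2b and slc3a2a, the light chain genes slc7a5, slc7a8a, slc7a6 and slc7a7, and slc43a2a, slc43a1a and slc6a17; red points are knockout and blue points MYCN-only libraries. Knockout library 1 (red circle) is highest for slc3a2b at 443 CPM, for slc43a2a at 310.3 CPM and for slc6a17 at 88.0 CPM, and lowest for slc43a1a at 38.6 CPM.

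Of the tested members, 12 (26.1%) had their highest level in knockout library 1, against 22.4% of all tested genes, and 11 (23.9%) had it in MYCN-only library 2, against 18.9%. Neither share stands far from its background. The carriers of cationic amino acids did not differ beyond the spread. slc7a2, which takes up arginine, stood at 40.2, 9.79 and 31.5 CPM in knockout and at 12.1, 101 and 31.5 CPM in MYCN-only (log2 fold change -0.83, SE 0.84). Outside the rule, slc7a3 had 0.03 (SE 0.36) and the related gene slc7a4 0.32 (SE 0.40), both highest in knockout library 1, at 110.5 and 145 CPM.

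In slc38, the family of glutamine and alanine carriers, the libraries of 3 of 8 tested members did not overlap, 2 of them higher and 1 lower, where 11.6% and 12.3% of all genes were. slc38a5b, a glutamine carrier gene of the plasma membrane, was read at 167, 170.5 and 147 CPM in knockout and at 268, 237 and 278 CPM in MYCN-only. Both groups were narrow, at 162 ± 12.4 and 261 ± 21.0 CPM (SD, n = 3), and the log2 fold change was -0.69 (SE 0.20, edgeR adjusted p = 0.195). It was called in DESeq2 (adjusted p = 0.0157) and without knockout library 1 (edgeR adjusted p = 0.0490), in a range of 0.0157 to 0.432 over 15 settings. slc38a7, which in mammals exports glutamine from the lysosome, went the other way, at 23.4, 30.2 and 47.0 CPM against 17.2, 16.4 and 16.4 CPM. Its log2 fold change was 1.01 (SE 0.32, edgeR adjusted p = 0.202), and it was called without knockout library 1 (edgeR adjusted p = 0.0330, range 0.0330 to 0.436 over 15 settings). The fit without knockout library 1 held only the knockout libraries with the ovary markers, whose part was not tested. slc38a11, whose substrate is little known, stood at 1.35, 4.97 and 15.7 CPM against 0.240, 0.889 and 0.462 CPM. The knockout libraries were all higher and spread widely (log2 fold change 3.81, SE 1.04, edgeR adjusted p = 0.187). It was 2.59 without knockout library 3 and 1.38 with knockout libraries 2 and 3 left out. DESeq2 called it (adjusted p = 0.00259), as did edgeR without knockout library 1 (0.0217), in a range of 0.00259 to 0.525 over 14 settings. Its 2 higher knockout libraries are those with the ovary markers, whose part was not tested, and its span overlaps the sodium channel gene scn1laa in the RefSeq annotation.

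The remaining slc38 genes overlapped between groups. slc38a2, which in mammals is induced when amino acids run short, was at 213, 103 and 182 CPM against 95.7, 123 and 160.2 CPM (log2 fold change 0.39, SE 0.35). slc38a9, the lysosomal arginine sensor, stood at 15.0, 37.2 and 29.7 CPM against 16.6, 23.1 and 31.0 CPM (log2 fold change 0.21, SE 0.41). slc38a6, a further member of the family, had 0.60 (SE 0.31). Outside the rule, slc38a4 stood at 342, 172 and 363 CPM in knockout and at 70.3, 618 and 190.4 CPM in MYCN-only, where the libraries differed most. Its means were 293 ± 105 and 293 ± 288 CPM (SD, n = 3). slc38a3a had 0.46 (SE 0.76), and slc38a8 did not pass the filter.

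Several of the spread genes are known in mammals from liver, among them slc38a4, slc38a3 and slc7a2. The 12 liver markers, all read in all libraries, summed to 29841, 7765 and 10635 CPM in knockout and to 4149, 48747 and 15778 CPM in MYCN-only libraries 1, 2 and 3. MYCN-only library 2 was highest and MYCN-only library 1 lowest in that sum, and the same held for the order of the MYCN-only libraries in slc38a4, slc7a2, slc6a13l and slc43a1b. These genes are examples, and slc38a3a, slc6a13 and slc1a3a, among others, had the same order. MYCN-only library 2 was the highest of all libraries for 23.9% of the tested members and 18.9% of all tested genes. In knockout, library 1 had the highest liver sum and the highest slc7a2 and slc6a13l, but not the highest slc38a4 or slc43a1b. The part of liver RNA in these levels was not tested.

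**Figure D4:**
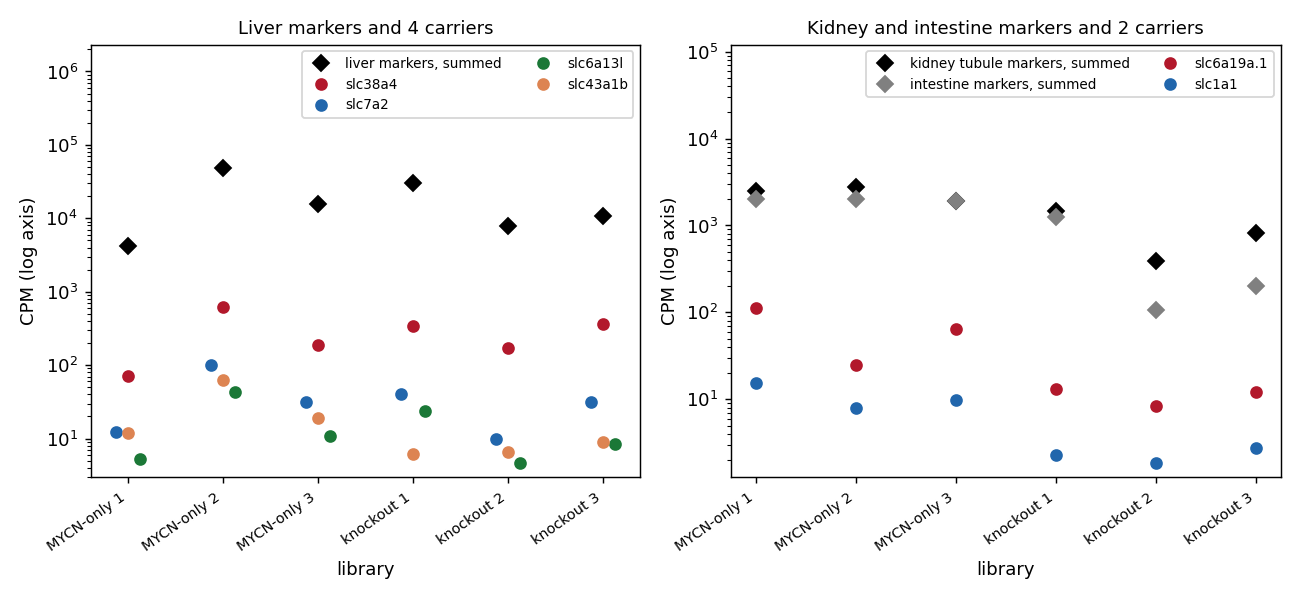
Summed CPM of marker genes (diamonds) and CPM of carriers (circles) by library, on log axes; the left panel has 12 liver markers and 4 carriers, and the right panel 11 kidney and 11 intestine markers and 2 carriers. In the left panel MYCN-only library 2 is the highest for each. In the right panel the knockout libraries hold slc1a1 at 1.83 to 2.74 CPM. Their kidney sums are 389.8 to 1479 CPM and their intestine sums 107 to 1237 CPM.

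In slc43 the copies of each gene lay on different sides of 0, which for slc43a2 did not hold without knockout library 1. slc43a1b, a copy of the leucine carrier slc43a1, was read at 6.23, 6.54 and 9.09 CPM in knockout and at 12.02, 63.1 and 19.2 CPM in MYCN-only, with no overlap (log2 fold change -2.11, SE 0.65, edgeR adjusted p = 0.198). DESeq2 called it (adjusted p = 0.0230, range 0.0230 to 0.423 over 15 settings), and without MYCN-only library 2 the log2 fold change was -1.07. slc43a1a stood at 38.6, 83.5 and 125 CPM against 57.9, 41.7 and 46.1 CPM, so knockout library 1 was the lowest and knockout libraries 2 and 3 the highest of all. Knockout libraries 2 and 3 are those with the ovary markers, whose part was not tested. The log2 fold change was 0.76 (SE 0.43). It was 1.098 without knockout library 1, where the gene was called (edgeR adjusted p = 0.0401, range 0.0401 to 0.760 over 15 settings), and -0.33 with knockout libraries 2 and 3 left out. slc43a2a stood at 310.3, 63.6 and 38.4 CPM against 115, 159 and 59.8 CPM (log2 fold change 0.30, SE 0.81, and -1.13 without knockout library 1), and slc43a2b had -0.73 (SE 0.33). slc43a3, which in mammals carries purine nucleobases rather than amino acids, had the copy slc43a3b at 39.2, 55.5 and 20.6 CPM against 17.8, 20.8 and 13.1 CPM (log2 fold change 1.16, SE 0.41, edgeR adjusted p = 0.219). Knockout library 3 lay just below MYCN-only library 2. The other copy, slc43a3a, had -0.98 (SE 0.82, and -0.11 without MYCN-only library 1).

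The balance between copies was taken as the first copy's share of the reads of both, which does not depend on library scaling. Over 7 pairs, exact permutation tests (two-sided, smallest possible p = 0.1 with 3 against 3) could not pass, and gave an adjusted p of 0.35 or more. slc3a2b held 88.0%, 63.6% and 72.3% of the slc3a2 reads in knockout and 46.1%, 60.9% and 62.6% in MYCN-only. The share was higher in every knockout library (exact p = 0.1), with knockout library 2, at a 95% Wilson interval of 61.9% to 65.3%, within counting error of MYCN-only library 3 at 60.8% to 64.3%. slc43a1a held 86.1%, 92.7% and 93.2% of the slc43a1 reads in knockout and 82.8%, 39.8% and 70.6% in MYCN-only, again with no overlap (exact p = 0.1). The intervals of the nearest libraries, 83.6% to 88.2% and 80.5% to 84.9%, overlapped. The shares of the other 5 pairs overlapped between groups (exact p = 0.2 to 0.9). slc6a13 held 27.1% of its pair in knockout library 1 and 73.9% and 74.3% in knockout libraries 2 and 3. Intervals cover counting error only, and a share within a pair is also set by the lengths of the copies.

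**Figure D5:**
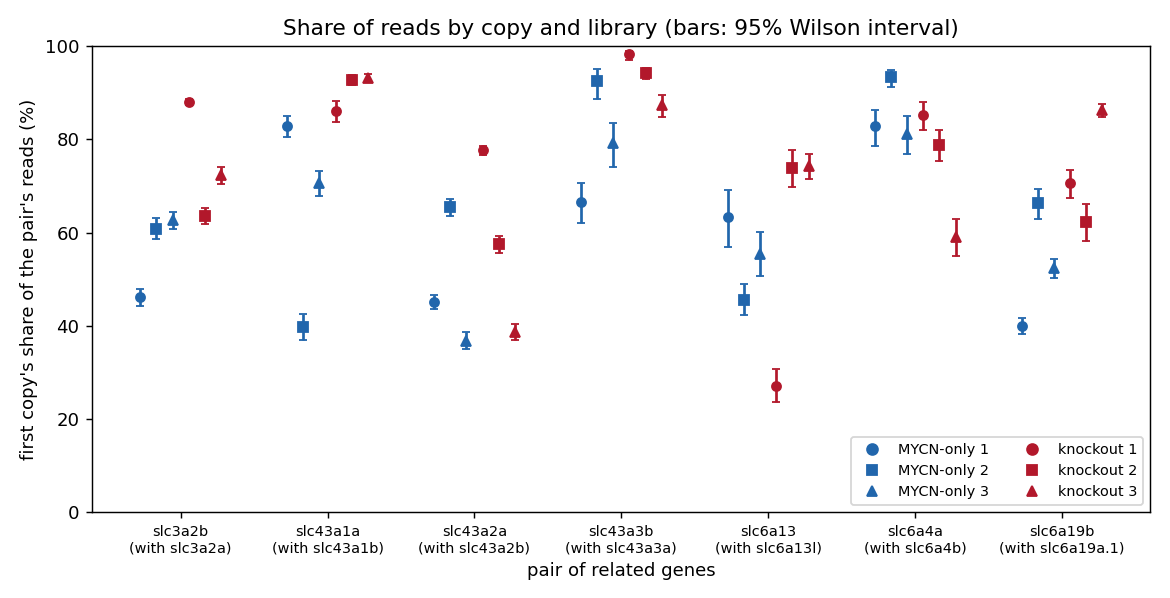
Share of a pair's reads held by the first copy (y axis, %), for 7 pairs of related genes; blue points are MYCN-only and red points knockout libraries, with 95% Wilson intervals of the reads. The knockout libraries lie above all MYCN-only libraries for slc3a2b (63.6% to 88.0%) and slc43a1a (86.1% to 93.2%), and overlap them in the other 5 pairs.

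Genes around the transporters were read from 5 lists. Genes induced when amino acids run short, the response that the factor ATF4 drives, were mostly higher in knockout. Of 20 measured, 16 lay on the higher and 4 on the lower side (median 0.73 on the log2 scale), 8 were higher at an unadjusted p under 0.05 and 0 were called by edgeR. The share of all genes at that threshold was 11.5%, and the count was 5 without MYCN-only library 1 and without MYCN-only library 3. DESeq2 called 5 genes of the list as higher (6.29% of all genes), and edgeR without knockout library 1 called 2 (11.2% of all genes). The summed level of the list was 2349, 2147 and 2218 CPM in knockout and 1167, 1425 and 1254 CPM in MYCN-only, with no overlap. ddit4, an inhibitor of mTORC1, was at 229 ± 77.2 against 20.9 ± 21.4 CPM (SD, n = 3). chac1, which degrades glutathione, was at 247 ± 57.6 against 82.5 ± 48.0 CPM, and the proline synthesis gene aldh18a1 at 339.9 ± 209 against 89.6 ± 3.79 CPM, their libraries not overlapping. aldh18a1 was at 418 and 499 CPM in knockout libraries 2 and 3, those with the ovary markers, and at 103 CPM in knockout library 1. Other genes of the list changed less, with log2 fold changes of 0.17 for atf4a, -0.18 for atf4b, -0.14 for ddit3 and 0.59 for asns (SE 0.23, 0.26, 0.51 and 0.28). In knockout libraries 1, 2 and 3 cebpb stood at 264, 109 and 37.0 CPM and atf3 at 71.1, 19.5 and 8.08 CPM. Both overlapped between groups. These genes were also named after their values were seen. The transporters known in mammals as part of that response, named after their values were seen, did not share one direction. Of these 7, 0 had an unadjusted p under 0.05, where 11.5% of all genes were higher and 7.57% lower. A list of 7 genes is too short to tell 0 from these shares. Log2 fold changes of the 7 were -0.07 for slc7a5, 0.98 for slc3a2b, -0.87 for slc3a2a, 0.26 for slc1a5, -0.06 for slc1a4, 0.39 for slc38a2 and -0.35 for slc6a9. The symbols slc7a11 and slc7a1 were not among the members.

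Genes by which mTORC1 senses amino acids were divided, with 14 of 29 higher and 15 lower (median -0.02, 0 called by edgeR). DESeq2 called 1 as higher, against 6.29% of all genes. Without knockout library 1 edgeR called 2 as higher and 1 as lower, against 11.2% and 3.51% of all genes. At an unadjusted p under 0.05, 3 were higher and 1 was lower, against 11.5% and 7.57% of all genes, and without MYCN-only library 1 none was higher. rragca stood at 37.7 ± 6.27 against 21.3 ± 2.98 CPM, lamtor3 at 22.4 ± 4.09 against 12.4 ± 2.70 CPM and lamtor1 at 26.9 ± 3.01 against 17.0 ± 1.29 CPM (SD, n = 3), and the libraries of each did not overlap. The gene on the lower side at that threshold, sesn3, a sestrin, stood at 14.6 ± 5.10 against 26.9 ± 3.78 CPM without overlap. The sestrin genes sesn2 and sesn1 were on the higher side, with log2 fold changes of 1.23 and 0.89 (SE 0.55 and 0.77), and overlapped between groups. Without knockout library 1 sesn2 was called (edgeR adjusted p = 0.0241). In the whole list 5 genes were higher and 4 lower without overlap, against 11.6% and 12.3% of all genes. The others were sec13 and lamtor2, with log2 fold changes of 0.55 and 0.84, and nprl3, mtor and mlst8, with -0.58, -0.34 and -0.29. These and the sestrin genes were named after their values were seen. Amino acid and peptide carriers of other families were divided as well, with 8 of 16 tested in each direction (median 0.03, 0 called by edgeR, with 3 higher and 2 lower where unadjusted p was under 0.05, against 11.5% and 7.57% of all genes, and 2 higher and 1 lower by DESeq2, against 6.29% and 4.02%). Among them the intestinal peptide transporter slc15a1b, which is also on the intestine marker list, was at 2.57 ± 0.335 against 60.1 ± 46.3 CPM and mfsd12a, known for cysteine import into melanosomes and lysosomes, at 25.03 ± 3.33 against 12.1 ± 3.49 CPM. The mitochondrial glycine carrier slc25a38a stood at 13.1, 1.31 and 7.59 CPM in knockout and 1.56, 0.622 and 0.231 CPM in MYCN-only, where knockout library 2 lay inside the MYCN-only range. The list of transporter partners, 6 measured genes with 3 in each direction, held pdzk1, given above as a kidney marker, on its lower side.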

How the data were processed

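Total RNA, taken with Trizol, went into stranded paired-end libraries read on an Illumina HiSeq, per the labels' protocols. The table deposited by the authors holds raw counts for each gene symbol. The submitters' processing notes list featureCounts 1.4.6, Subread, Bowtie2 2.2.6, TopHat2 2.0.14 and the build danRer10. Neither strand setting nor annotation is given in the sources used here, so overlapping genes or similar copies may share reads. In the RefSeq table of GRCz12tu, used only for gene names and order, 12 of 51 matched members overlapped an adjacent gene.

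Counts were filtered with filterByExpr (12821 genes left), scaled by TMM and tested with edgeR 4.0.16 by quasi-likelihood over all 6 libraries, with Benjamini-Hochberg adjustment over all tested genes. The SE of a fold change is its size divided by the root of F. The biological coefficient of variation was 52.5%. The procedure was tested on simulated data. At the fitted spread it recovered 0% of 2-fold, 15.4% of 4-fold and 76.9% of 16-fold changes. At a coefficient of variation of 20% it recovered 74.6% of 2-fold changes. A gene that was not called may therefore still differ between the groups. Alternatives were DESeq2 1.42.0, limma-voom (limma 3.58.1), other factors and filters, robust dispersion, a replicate block and left-out libraries (R 4.3.3). Log2 CPM used a prior count of 2. All 54 members are accounted for. The rule for named genes took slc1a1, the 25 members with the smallest p, copies of known carriers and up to 3 genes of each other list. Members, lists and alternatives were chosen with earlier results of these data known. One gene of the partner list is not reported here.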

Additional observations from a re-analysis of the deposited data

How the results depend on the processing

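edgeR called no transporter gene with DESeq2's size factors, upper-quartile factors, no filter, at least 10 reads in every library, robust dispersion or the block, and upper-quartile factors moved the median of all genes from 0.04 to -0.14. DESeq2 called 1323 genes of all, with 2 transporter genes as higher and 5 as lower. limma-voom called 1 gene of all and had 2 transporter genes higher at an unadjusted p under 0.05. With knockout libraries 2 and 3 left out 9 genes of all were called and 7 transporter genes were higher at an unadjusted p under 0.05, the lone knockout library being assumed to vary like the others. Leaving out 1 library gave 0 to 1923 genes called of all, 0 to 4 transporter genes called as higher and 0 to 3 as lower, the highest counts all without knockout library 1. At an unadjusted p under 0.05 it gave 2 to 8 higher and 3 to 8 lower, and the median ran from -0.33 (without knockout library 1) to 0.23 (without MYCN-only library 2). Deviations of same-numbered libraries from their group means correlated at -0.09, -0.15 and 0.19, and those of other pairs at -0.16 to 0.20. With 3 libraries a group these values cannot tell whether the numbers pair the samples. With the replicate number as a block 8 genes of all and 0 transporter genes were called, and unadjusted p was under 0.05 for 4 on the higher and 6 on the lower side, with a median of -0.16. For these alternatives the share of all genes at an unadjusted p under 0.05 was not taken. Their counts at that threshold therefore cannot be set against a background. Log2 fold changes of these genes turned sign. They read slc1a6 -0.00042, slc6a16b -0.093, slc7a3 -0.13, slc7a8a -0.049 with upper-quartile factors, slc38a4 0.011 with no filter, slc38a4 0.48, slc43a2a -0.19, slc7a3 -0.0011, slc7a8a -0.18 in limma-voom, slc38a4 0.54, slc43a2a -0.21, slc7a3 -0.0070, slc7a8a -0.17 with the block, and slc1a3a 0.015, slc1a4 0.47, slc38a4 0.25, slc38a9 -0.64, slc43a1a -0.33, slc6a13l 0.28, slc6a15 0.019, slc6a16b -0.20, slc7a5 0.73 with knockout libraries 2 and 3 left out. Leaving out 1 library gave ranges that cross 0 for 20 genes: slc1a2b -1.36 to 0.054, slc1a3a -0.68 to 0.23, slc1a4 -0.42 to 0.21, slc1a6 -0.46 to 1.25, slc1a8b -0.94 to 0.39, slc38a3a -0.46 to 1.03, slc38a4 -0.48 to 1.18, slc38a9 -0.084 to 0.51, slc3a2b -0.58 to 1.42, slc43a2a -1.13 to 0.75, slc6a13 -0.83 to 0.48, slc6a13l -1.57 to 0.62, slc6a16b -0.039 to 0.22, slc6a4a -1.13 to 0.017, slc7a2 -1.30 to 0.32, slc7a3 -0.36 to 0.32, slc7a4 -0.19 to 0.58, slc7a5 -0.73 to 0.52, slc7a7 -0.30 to 0.63, slc7a8a -0.84 to 0.43. The share of slc43a2a in its pair differed between groups by -1.01 to 18.5 percentage points and that of slc6a13 by -4.31 to 19.3. The cause of these changes was not tested. Genes near the floor of 3 reads, 0.0977 to 0.267 CPM, are limited by depth.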

Other observations

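Enzymes that use the transported amino acids were not described above. Of 27 tested, 17 were higher in knockout and 10 lower (median log2 fold change 0.21), and edgeR's test called 0, with unadjusted p under 0.05 for 4 on the higher and 3 on the lower side, against 11.5% and 7.57% of all genes. Leaving out 1 library gave 2 (without MYCN-only library 1 or 3) to 6 (without knockout library 1) higher and 1 (without knockout library 2 or MYCN-only library 1) to 4 (without knockout library 1) lower. DESeq2 called 2 as higher and 1 as lower (6.29% and 4.02% of all genes). Without knockout library 1 edgeR called 1 of the 27 in each direction (11.2% and 3.51% of all genes). gclm, the regulatory subunit of the enzyme that joins glutamate to cysteine for glutathione, stood at 41.3, 32.9 and 41.2 CPM in knockout and at 15.3, 15.6 and 16.8 CPM in MYCN-only. Its groups were narrow and did not overlap (log2 fold change 1.27, edgeR adjusted p = 0.174). glulb, a glutamine synthetase gene, stood at 257 ± 36.2 against 122 ± 38.9 CPM (SD, n = 3), and arg1, which splits arginine, at 7.87 ± 1.39 against 42.99 ± 9.22 CPM, neither with overlapping libraries. Named after its values were seen, gss, which completes glutathione, was at 24.6 against 13.05 CPM on average. odc1, the first enzyme of polyamine synthesis, at 107 against 57.4 CPM on average, and the proline synthesis gene pycr1a, at 15.7 against 25.7 CPM on average, did not overlap either and were named in the same way. Also named after its values were seen, gad2, which makes GABA from glutamate, was at 2.61 against 11.7 CPM on average, and its libraries overlapped. Of the 27 tested genes 5 were higher and 2 lower without overlap, against 11.6% and 12.3% of all genes. Relatives of the genes above, named in the same way, overlapped. arg2 went the other way from arg1, with a log2 fold change of 1.48 (SE 0.84), and gclc had 0.35 (SE 0.28).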
